A study of Mus musculus with 12 samples.

Results

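Integrin and laminin subunits were taken as every gene whose symbol names an integrin α chain, an integrin β chain, or a laminin α, β or γ chain. This rule found 37 of the 28686 genes counted, of which 26 encode integrin chains (18 α and 8 β) and 11 encode laminin chains (5 α, 3 β and 3 γ). They were measured by RNA-seq in the cochlea of mouse pups at postnatal day 6, described by the study as the sensory epithelium. Of the 12 libraries, 6 came from controls and 6 from mutants, which the study describes as biological replicates. Mutants were Sox2CreER/+Jag1fl/fl, which lose the Notch ligand gene Jag1 in supporting cells when tamoxifen activates the recombinase CreER made from one Sox2 allele. Controls were Sox2+/+ littermates without CreER that could carry Jag1 +/fl or Jag1 fl/fl, and the strain label of every library was C57BL/6;129SV. The study's methods instead name a C57bl6/J background for the Sox2-CreER line and FVB/n for the Jag1 flox line. Pups of both genotypes received tamoxifen in the first days after birth, so that tamoxifen was shared, whereas CreER and the loss of an intact Sox2 allele came with the mutant genotype and cannot be told apart from Jag1 loss here. The question asked of these genes was how their RNA differed between the genotypes in this cochlear tissue. Markers of mesenchyme were detected in it beside those of hair cells and supporting cells.

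Integrins are receptors made of an α and a β chain that span the cell membrane and hold cells to the matrix around them or to other cells. Laminins are secreted trimers of an α, a β and a γ chain that polymerise into the basement membrane, the sheet beneath epithelia and around Schwann cells, blood vessels and muscle. In the cochlea such a sheet underlies the supporting cells, and axons of the spiral ganglion reach the sensory epithelium through it.

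Total counts ran from 28498549 to 34430252 in control libraries and from 31899265 to 36134983 in mutant libraries, and the 37 genes held 0.421% to 0.490% of them in controls and 0.435% to 0.545% in mutants. Levels are given as CPM (counts scaled to a fixed library total) after TMM scaling, which corrects for differences in library composition. Jag1 itself was at 102 ± 14.7 CPM (SD, n = 6) in controls, with libraries from 83.0 to 118 CPM, and at 36.4 ± 6.56 CPM (SD, n = 6) in mutants, with libraries from 24.2 to 42.9 CPM. The groups did not overlap, and Jag1 fell by 1.48 on the log2 scale (SE 0.13, edgeR adjusted p = 0.000258). Markers of hair cells (12 of 12) and supporting cells (13 of 13) were detected in every library, and so were all 11 markers of mesenchyme, which summed to between 9114 and 11864 CPM. In pooled tissue, fewer cells of a type and less RNA per cell cannot be told apart.

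In edgeR, integrins rather than laminins held the differences of low p between the genotypes. Of the 36 subunits with a mean count of at least 5, 0 passed an adjusted p of 0.05 in edgeR, against 0.190% of all 18459 genes tested. At an unadjusted p under 0.05 there were 10, or 27.8%, against 10.6% of all genes. Of these, 4 were higher in mutants (Itga6, Itga7, Itgb3 and Itgb8), where 6.52% of all genes were higher, and 6 were lower (Itga5, Itga11, Itgal, Itgam, Itgax and Itgb5), where 4.04% of all genes were lower. All 10 were among the 25 integrin chains tested (40.0%), and 0 of 11 laminin chains reached an unadjusted p under 0.05 in edgeR. The difference between these shares was not tested. DESeq2 put 12 of the 37 under 0.05 unadjusted, 4 higher and 8 lower in mutants, with the laminin chain Lama3 among the lower. The share of all genes at that p in DESeq2 was not counted. DESeq2 called 2 of the 37 at an adjusted p of 0.05, against 2.92% of the genes it tested, and these were Itga7 and Itgb8, both higher in mutants, whereas limma-voom called 0. In 1 simulated set of counts 15.7% of the calls of DESeq2 were false, against 2.6% for edgeR and for limma-voom. That set was drawn from dispersions that edgeR estimated, so these rates need not hold for the real counts. Over the 36 subunits the log2 fold change of mutants over controls was positive for 13 and negative for 23. Over all 18459 genes it was positive for 9403 and negative for 9056. The median was -0.04 over the subunits, beside 0.003 over all genes. For 0 of the 36 did the libraries of the genotypes separate without overlap, against 0.997% of all genes (0.618% with mutants higher and 0.379% with mutants lower). Itgad, an α chain of leukocytes, had 0 to 4 counts per library and was not tested.

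**Figure D1:**
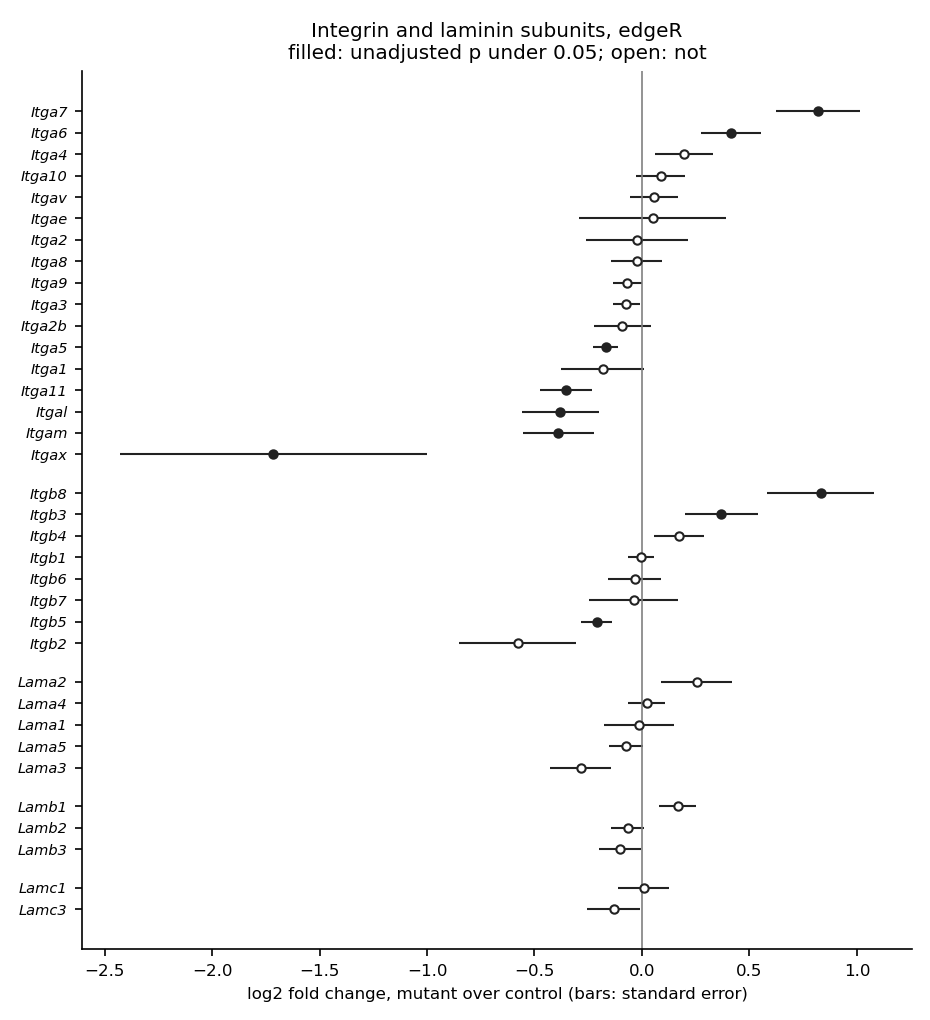
Log2 fold change of mutants over controls (horizontal axis) for 35 of the 36 subunits tested, with bars for the standard error, in blocks of integrin α, integrin β, laminin α, laminin β and laminin γ chains. Filled points, 10 in all, mark an unadjusted edgeR p under 0.05 and lie only in the upper blocks, the integrins; Itgb8 and Itga7 are farthest to the right, and Itgax, with 2 to 75 counts per library, is farthest to the left with the widest bar.

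Which chains the tissue contained most of was compared as CPM per kilobase (kb) of annotated exon, since a longer RNA gives more counts. Itgb1, the β chain shared by most matrix-binding integrins, had the highest level of all 37 at 158 CPM per kb, averaged over the 12 libraries. Control libraries lay between 149 and 167 CPM per kb and mutant libraries between 148 and 169, and both medians were 158. Itgb5, the β chain that forms a vitronectin receptor with Itgav, was the next β chain, with a median of 84.1 in controls (82.6 to 85.4) and 75.1 in mutants (61.9 to 83.2) CPM per kb. Itgb1 was above Itgb5 in all 12 libraries, and Itgb5 was above Itgb8, the next β chain, in all 12. By these levels Itgb1 made up 61.1 ± 0.902% of the summed β chains in controls and 62.6 ± 1.84% in mutants (SD, n = 6 each), Itgb5 made up 32.5 ± 1.05% and 28.7 ± 2.65%, and Itgb8 made up 2.09 ± 0.635% and 3.84 ± 1.30%.

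Among the integrin α chains, Itga8, known from kidney mesenchyme and from the hair bundles of the inner ear, had the highest level per length. Its median was 31.7 CPM per kb in controls (28.7 to 42.2) and 33.6 in mutants (24.2 to 38.7). Itga10, a collagen receptor chain of cartilage, was at 22.8 in controls (17.6 to 27.5) and 22.3 in mutants (20.8 to 30.3), and it lay below Itga8 in all 12 libraries. The chains that followed were close to one another: Itga10 exceeded Itga5 in 9 libraries, Itga5 exceeded Itgav in 5, and Itgav exceeded Itga6 in 10. The order of these middle chains also depended on the length used, because with the longest coding transcript in place of all exons Itga6 was at 39.7 CPM per kb, behind Itga8 at 41.9.

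Lamc1, the γ chain of most laminins, had the highest level of the laminin chains and the second highest of all 37. Its median was 97.9 CPM per kb in controls (86.7 to 125) and 107 in mutants (78.3 to 122). Lamb1, a β chain of many embryonic and vascular laminins, had medians of 51.1 (44.8 to 55.0) and 56.1 (50.1 to 71.1), and Lamb2, the β chain known from synapses and the kidney filter, had 39.7 (34.1 to 44.5) and 38.8 (32.5 to 41.7). Lamb1 was above Lamb2 in all 12 libraries.

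No single laminin α chain stood out. Lama5, the α chain of most epithelial and mature vascular basement membranes, had medians of 19.8 CPM per kb in controls (17.5 to 21.8) and 19.1 in mutants (16.03 to 21.04). Lama4, an α chain of vessels and nerves, had 16.9 (15.6 to 18.4) and 16.7 (15.2 to 21.9). Lama5 was above Lama4 in 8 of 12 libraries, and with the longest coding transcript as the length the order turned, with Lama4 at 34.2, Lama2 at 23.6 and Lama5 at 19.4 CPM per kb. Lama3 and Lama1 were below 1 CPM per kb in every library by either length.

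**Figure D2:**
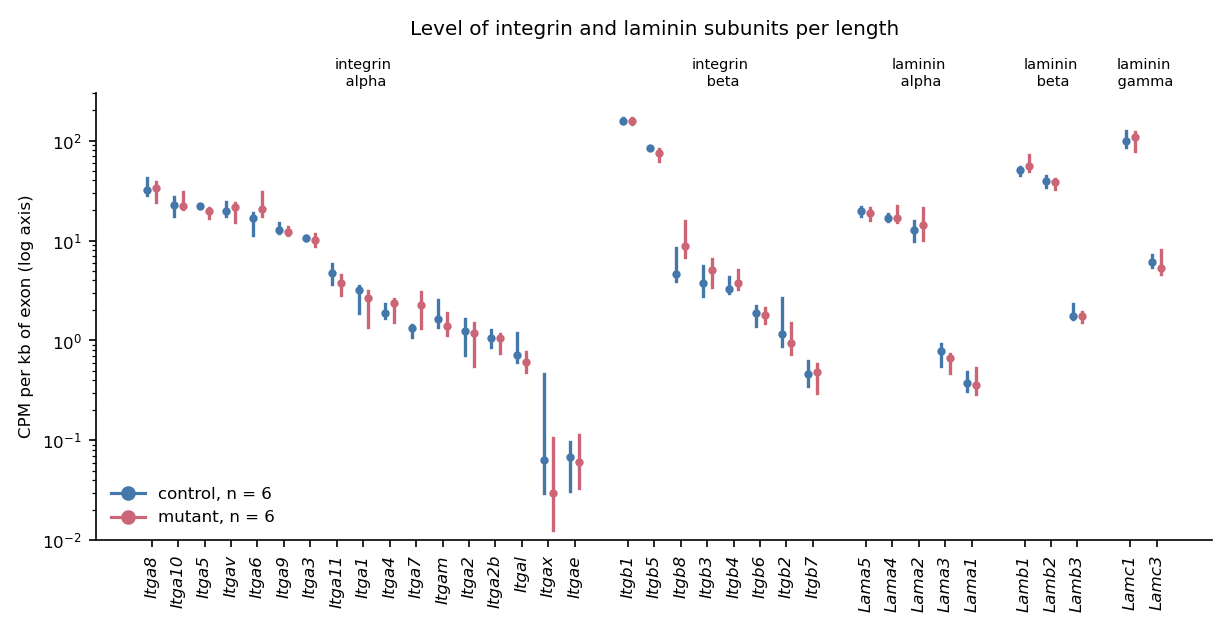
Level of 35 subunits in CPM per kb of annotated exon on a log axis, by class and in order of the mean over 12 libraries; points are medians and lines run from the lowest to the highest of 6 libraries, blue for controls and red for mutants. Itgb1 and Lamc1 are at the top, Itgax and Itgae at the bottom, and the lines of the genotypes overlap for every gene shown; Itgad is among those left out.

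Among the laminin-binding α chains, Itga6 and Itga7 had positive log2 fold changes at an unadjusted p under 0.05, of which DESeq2 called Itga7, and Itga3 was not distinguishable from controls. Itga7 (ENSMUSG00000025348, chromosome 10, 128933818 to 128958282, GRCm38), a laminin receptor chain best known from skeletal muscle, had a lowest, median and highest level of 8.84, 10.7 and 11.6 CPM in controls and of 10.9, 18.3 and 25.0 CPM in mutants. Mutants 1, 2 and 4 were at 22.7, 25.0 and 23.6 CPM, above every control, while mutants 3 and 6 were only slightly above the highest control and mutant 5 lay within the control range. The log2 fold change was 0.82 (SE 0.20), with an edgeR p of 0.000979 unadjusted and 0.0937 adjusted, an exact permutation p of 0.00866 (two-sided), and a DESeq2 adjusted p of 0.00355. Without mutant 5 the edgeR adjusted p of Itga7 was 0.0215, the only member to pass when a single library was left out. In that fit 356 genes were called over all genes, against 35 with all 12 libraries. Since mutant 5 was the lowest mutant for Itga7, a larger log2 fold change follows from leaving it out.

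Itga6 (ENSMUSG00000027111, chromosome 2, 71745616 to 71858416), the laminin receptor chain that pairs with Itgb1 or, in hemidesmosomes and myelinating Schwann cells, with Itgb4, was at 102, 151 and 170 CPM (lowest, median and highest) in controls and at 159, 185 and 276 CPM in mutants. All but 1 of the mutants were above every control, and mutant 2 was the highest. Its log2 fold change was 0.41 (SE 0.14, edgeR unadjusted p = 0.0110, adjusted p = 0.237, exact permutation p = 0.0108), and 0.29 without mutant 2. Itga3, a laminin receptor chain of epithelia, ran from 58.1 to 63.7 CPM in controls and from 50.7 to 66.4 CPM in mutants, with a log2 fold change of -0.07 (SE 0.06, edgeR unadjusted p = 0.258). The ratio of Itga6 to Itga3 per kb, formed after the values were seen, was 1.05 to 1.80 in controls and 1.51 to 3.05 in mutants, which overlap.

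Of the β chains, Itgb8 and Itgb3, which both pair with Itgav, had positive log2 fold changes at an unadjusted p under 0.05, and of these DESeq2 called Itgb8 alone. Itgb8 (ENSMUSG00000025321, chromosome 12, 119158022 to 119238802), which with Itgav activates latent TGF-β, was at 43.3, 51.1 and 93.0 CPM in controls and at 75.3, 97.7 and 175 CPM in mutants. The ranges overlapped through control 1, the highest control, and control 6 at 76.7 CPM, and mutants 1, 2 and 6 were above every control. The log2 fold change was 0.83 (SE 0.25), with an edgeR p of 0.00594 unadjusted and 0.169 adjusted, an exact permutation p of 0.0173 and a DESeq2 adjusted p of 0.0136. Itgb3, the β chain of the platelet fibrinogen receptor and of a vitronectin receptor, was at 16.5, 22.3 and 32.7 CPM in controls and 20.2, 29.7 and 38.4 CPM in mutants. These ranges overlapped widely, and its log2 fold change of 0.37 (SE 0.17, edgeR unadjusted p = 0.0487, adjusted p = 0.468, exact permutation p = 0.0844) lost an unadjusted p under 0.05 in 8 of the 12 fits that left out a library. Itgav itself, the α chain that both pair with, ran from 188 to 260 CPM in controls and from 166 to 256 CPM in mutants (log2 fold change 0.06, SE 0.11).

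**Figure D3:**
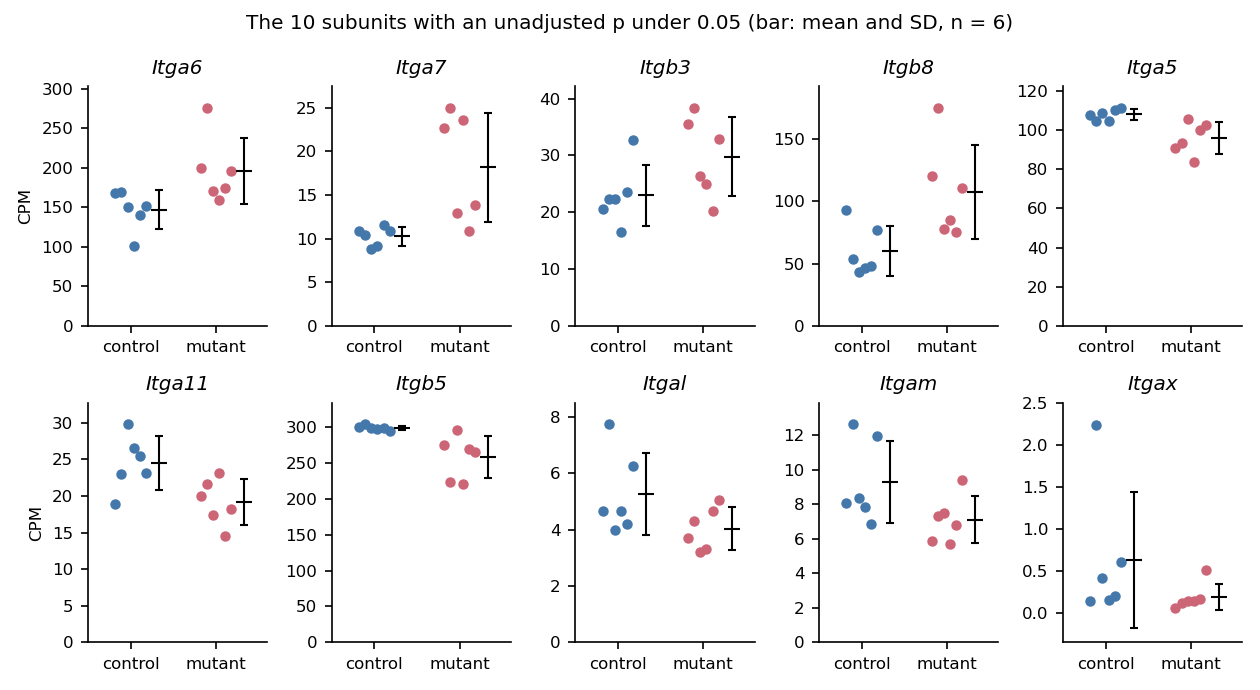
CPM per library for the 10 subunits with an unadjusted edgeR p under 0.05, 6 control and 6 mutant libraries each in order of replicate number, with the mean and SD beside them. The libraries of the genotypes overlap in every panel; Itga7 has 3 mutants near 24 CPM and 3 near or below 14 CPM, and Itgb5 controls lie within 293 to 303 CPM.

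Markers of nerve were also higher in mutants at an unadjusted p. Of 13 Schwann cell markers, 12 had an unadjusted p under 0.05 and were higher in mutants, and so were 12 of 14 neuron markers, where 6.52% of all genes were higher, with 0 passing the adjusted threshold in edgeR and 10 and 8 passing it in DESeq2. The summed level of the Schwann cell markers was 319 to 1134 CPM in controls and 925 to 5063 CPM in mutants, and that of the neuron markers was 271 to 456 and 342 to 1529 CPM; 0 of these markers were at 0 in every library. Mutants 1 and 2 had the highest Schwann cell sums (5063 and 3871 CPM) and mutant 4 the highest neuron sum (1529 CPM). These were the libraries at the top for Itga7, and mutants 1 and 2 were the highest for Itga6, Itgb3 and Itgb8 as well. Mutant 4 was not: it had the lowest Schwann cell sum of the mutants (925 CPM) and the lowest Itga6 (159 CPM), with Itgb3 at 25.0 CPM and Itgb8 at 85.1 CPM.

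When scores for neuron and Schwann cell markers in each library entered the fit as covariates, the log2 fold change was 0.07 for Itga7 (SE 0.21, edgeR unadjusted p = 0.742), 0.02 for Itgb8 (SE 0.25), -0.08 for Itga6 (SE 0.14) and -0.18 for Itgb3 (SE 0.22), so that the latter pair turned in sign. Without mutants 1, 2 and 4, left out after the data were seen, it was 0.29 for Itga7 (SE 0.11), 0.30 for Itga6 (SE 0.13), 0.54 for Itgb8 (SE 0.26) and 0.20 for Itgb3 (SE 0.20). The edgeR adjusted p of these 4 was then between 0.623 and 0.892, and the unadjusted p was 0.0253, 0.0476, 0.0698 and 0.323 in that order. Since these 3 libraries were also the highest of all for Itga7, its smaller value follows from leaving them out and shows no link with the markers. How much of the difference in these subunits came with nerve tissue was not tested beyond these fits. The scores themselves differed by genotype, so these fits also take up part of whatever else differed between the genotypes.

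**Figure D4:**
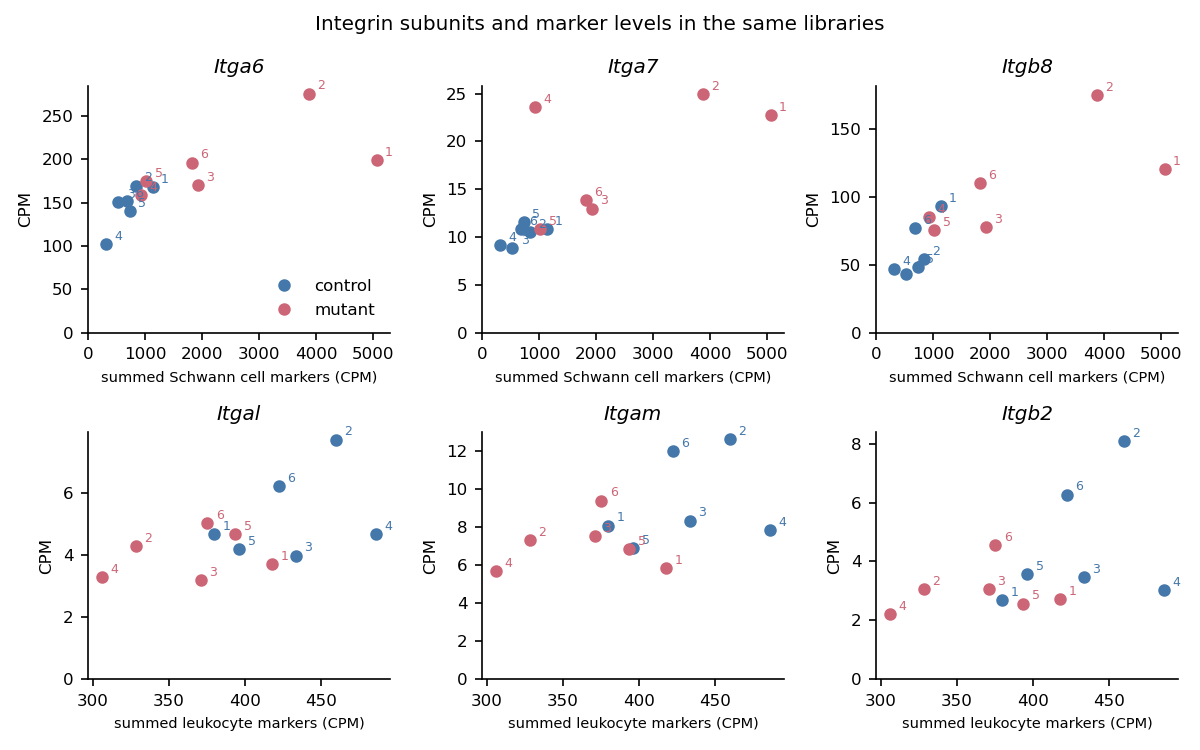
CPM of 3 subunits against the summed CPM of 13 Schwann cell markers (upper row) and of 3 leukocyte subunits against the summed CPM of 12 leukocyte markers (lower row, horizontal axis not from 0); each point is a library with its replicate number, blue for controls and red for mutants. Mutants 1 and 2 lie far to the right in the upper row and are the highest for Itga6 and Itgb8, mutant 4 is high in Itga7 at a Schwann cell sum within the control range, and in the lower row controls 2 and 6 are highest, while control 4, farthest to the right, is not.

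Small negative log2 fold changes at an unadjusted p under 0.05 were found for Itgb5, Itga5 and Itga11. Itgb5 (ENSMUSG00000022817, chromosome 16, 33829665 to 33949338) was at 293, 299 and 303 CPM (lowest, median and highest) in controls and at 220, 267 and 295 CPM in mutants. Controls lay within a coefficient of variation (CV) of 1.08% beside 11.6% in mutants, and every mutant but mutant 3 was below every control. The log2 fold change was -0.21 (SE 0.07, edgeR unadjusted p = 0.0118, adjusted p = 0.245, exact permutation p = 0.00433). The ratio of Itgb8 to Itgb5 per kb, formed after the values were seen, was 0.0466 to 0.0998 in controls and 0.0842 to 0.251 in mutants, which overlap.

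Itga5 (ENSMUSG00000000555, chromosome 15, 103344286 to 103366763), which with Itgb1 forms the main fibronectin receptor, was at 105, 108 and 111 CPM in controls and at 83.8, 96.8 and 105 CPM in mutants. As for Itgb5, mutant 3 was the only mutant within the control range and mutant 4 was the lowest. The log2 fold change was -0.17 (SE 0.06, edgeR unadjusted p = 0.0125, adjusted p = 0.253, exact permutation p = 0.00649). Itga11 (ENSMUSG00000032243, chromosome 9, 62677826 to 62783982), a collagen receptor chain of fibroblasts, was at 18.9, 24.3 and 29.8 CPM in controls and at 14.5, 19.1 and 23.2 CPM in mutants. Its ranges overlapped more, although all 6 mutants were below the control median, and its log2 fold change was -0.35 (SE 0.12, edgeR unadjusted p = 0.0105, adjusted p = 0.230, exact permutation p = 0.0238).

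For Itgb5, Itga5 and Itga11 the unadjusted p stayed under 0.05 whichever of the 12 libraries was left out. Without mutants 1, 2 and 4 the log2 fold changes of Itgb5 and Itga5 were smaller, at -0.11 and -0.07 (edgeR unadjusted p = 0.110 and 0.212, adjusted p = 0.784 and 0.856), whereas Itga11 was at -0.55 (edgeR unadjusted p = 0.00104, adjusted p = 0.199). These 3 mutants were also the lowest for Itga5, at 90.7, 93.5 and 83.8 CPM, so that its smaller value follows from leaving them out. With the marker scores in the fit they were at -0.14, -0.10 and -0.40 in edgeR, with unadjusted p of 0.217, 0.253 and 0.0702. Markers of mesenchyme, the cells that Itga11 is known from, summed to 9714 to 11864 CPM in controls and 9114 to 10770 CPM in mutants. Of these, 1 of 11 was lower at an unadjusted p under 0.05 (9.09%, where 4.04% of all genes were lower), and all 11 had negative log2 fold changes. Markers of supporting cells, in which CreER is active, summed to 8449 to 10828 CPM in controls and 7570 to 9463 CPM in mutants. At an unadjusted p under 0.05, 4 of 13 were lower (30.8%, beside 4.04% of all genes) and 0 higher (beside 6.52%), and 11 had negative log2 fold changes. In both lists 0 passed the adjusted threshold in edgeR or DESeq2. Over all genes 9056 of 18459 log2 fold changes were negative. Negative values also prevailed for markers of endothelial cells (9 of 10), pericytes and smooth muscle (8 of 9) and stria vascularis and melanocytes (7 of 8). For hair cell markers they were 6 of 12. The part of any of these cell types in the levels of Itgb5, Itga5 and Itga11 was not tested.

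**Figure D5:**
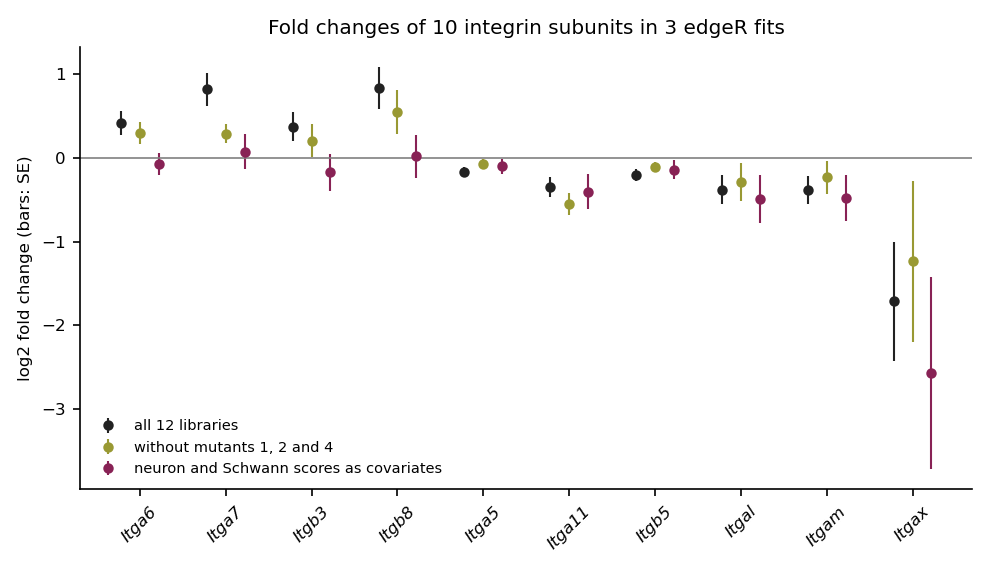
Log2 fold change of mutants over controls with its standard error for the same 10 subunits in 3 edgeR fits, namely all 12 libraries, without mutants 1, 2 and 4, and with the neuron and Schwann cell marker scores in the fit. The 4 subunits higher in mutants come to between -0.18 and 0.07 with the covariates, while the 6 lower ones stay negative in each fit.

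Of the 4 leukocyte α chains tested, Itgal, Itgam and Itgax had negative log2 fold changes with an unadjusted p under 0.05 (75.0%, where 4.04% of all genes were lower), Itgae was at 0.05 (SE 0.34), and 0 passed the adjusted threshold in edgeR or DESeq2. Itgb2, the β chain that these 3 pair with, had an edgeR unadjusted p of 0.0515. Itgam, part of the complement receptor of macrophages and neutrophils, was at 6.88, 8.22 and 12.6 CPM in controls and at 5.70, 7.09 and 9.41 CPM in mutants (log2 fold change -0.39, SE 0.17, edgeR unadjusted p = 0.0345, adjusted p = 0.407, exact permutation p = 0.0736). Itgal, the α chain of a lymphocyte adhesion receptor, was at 3.99, 4.67 and 7.74 CPM in controls and at 3.19, 4.01 and 5.04 CPM in mutants (log2 fold change -0.38, SE 0.18, edgeR unadjusted p = 0.0499, adjusted p = 0.473, exact permutation p = 0.0887). Both ranges overlapped, and in both genes control 2 was the highest control and mutant 6 the highest mutant.

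Itgax, the α chain known from dendritic cells, had only 2 to 75 counts per library. It was at 0.143, 0.307 and 2.23 CPM in controls and at 0.0613, 0.144 and 0.504 CPM in mutants, with control 2 again the highest. Its log2 fold change of -1.71 (SE 0.71, edgeR unadjusted p = 0.0314, adjusted p = 0.393, exact permutation p = 0.113) was -0.68 (p = 0.213) in edgeR without control 2. Without that library Itgal had an unadjusted p of 0.160 and Itgam of 0.102, and Itgb2 was at 2.67, 3.53 and 8.09 CPM in controls and 2.22, 2.89 and 4.57 CPM in mutants over all libraries (log2 fold change -0.58, SE 0.27). Of 12 leukocyte markers, 7 were lower at an unadjusted p under 0.05 (58.3%, where 4.04% of all genes were lower), and 0 passed the adjusted threshold in edgeR and 2 did in DESeq2. All 12 had negative log2 fold changes, beside 9056 of all 18459 genes, and lists of several other cell types leaned the same way. The markers summed to 380 to 486 CPM in controls and 306 to 418 CPM in mutants, and 0 of the 12 were at 0 in any library. The library with the highest marker sum in each genotype was not the highest in these integrins. Control 4 had the highest marker sum (486 CPM) with Itgam at 7.85 CPM and Itgax at 0.156 CPM. Mutant 1 had the highest sum of the mutants (418 CPM) with the lowest Itgax. Control 2, the highest control in Itgam, Itgal and Itgax, had the next sum after control 4 (459 CPM), and mutant 6 was at 375 CPM. Single markers differed in which libraries were highest. Ptprc was highest in control 2 (11.5 CPM) and mutant 6 (9.11 CPM), as were Itgam, Itgal and Itgax. Csf1r was instead highest in control 4 and mutant 5. The part of leukocytes in these results was not tested. Itgae, a lymphocyte chain that binds E-cadherin, ran from 0.143 to 0.446 CPM in controls and from 0.152 to 0.521 CPM in mutants, with 4 to 17 counts.

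For the other integrins no difference was detectable beyond the spread between libraries. Itgb1 ran from 606 to 683 CPM in controls and from 603 to 690 CPM in mutants, and its log2 fold change of -0.01 (SE 0.06) was among the most precise. Among α chains that bind collagen or proteins with the RGD sequence, Itga1 was at -0.18 (SE 0.19), Itga2 at -0.02 (SE 0.24), Itga10 at 0.09 (SE 0.12), Itga8 at -0.03 (SE 0.12) and the platelet chain Itga2b at -0.09 (SE 0.13) on the log2 scale. All 6 mutants were below the control median for Itga1, but mutant 1 alone was below the control range. Itga4, which binds fibronectin and VCAM1, was at 0.19 (SE 0.13), and Itga9, a receptor chain for tenascin, at -0.07 (SE 0.07). Of the remaining β chains, Itgb4 of the hemidesmosome was at 0.17 (SE 0.12), with all 6 mutants above the control median, Itgb6 of epithelia at -0.03 (SE 0.12) and Itgb7 of lymphocytes at -0.04 (SE 0.21). The smallest unadjusted p among these integrins was 0.161, for Itgb4, in edgeR.

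Laminin chains had log2 fold changes between -0.28 and 0.25. The 3 with the lowest p were Lama3, Lamb1 and Lama2, named here after their values were seen. Lamb1 was at 445, 507 and 545 CPM in controls and at 497, 556 and 705 CPM in mutants, with 4 mutants above every control and mutant 2 the highest (log2 fold change 0.17, SE 0.09, edgeR unadjusted p = 0.0724, exact permutation p = 0.0823). Lama2, the α chain of muscle and peripheral nerve basement membranes, was at 160, 209 and 259 CPM in controls and at 165, 232 and 347 CPM in mutants, again with mutant 2 the highest and with wide overlap (log2 fold change 0.25, SE 0.16, edgeR unadjusted p = 0.145). Lama3 was at 6.01, 8.46 and 9.97 CPM in controls and at 5.09, 7.11 and 7.80 CPM in mutants, and all 6 mutants were below the control median (log2 fold change -0.28, SE 0.14, edgeR unadjusted p = 0.0632).

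Lama3 and Lamb3 are chains of the laminin that anchors hemidesmosomes, and Lamb3 was at -0.10 (SE 0.10) on the log2 scale, which was not beyond the spread between libraries. Of the chains with the highest levels, Lamc1 was at 0.01 (SE 0.12), Lamb2 at -0.07 (SE 0.08), Lama5 at -0.08 (SE 0.08) and Lama4 at 0.02 (SE 0.09). Lama1, the α chain of the earliest embryonic basement membranes, was at -0.01 (SE 0.16), with levels of 2.82 to 5.16 CPM over all 12 libraries, and Lamc3 at -0.13 (SE 0.12). In edgeR a log2 fold change of about 2 standard errors did not reach an unadjusted p under 0.05, as Lamb1 and Lama3 show. Smaller changes were thus not detectable by that test with 6 libraries a group.

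Because the deleted gene encodes a Notch ligand, the promoters of the subunits were searched for TGGGAA, the core letters bound by RBPJ, the DNA-binding protein of the Notch pathway. The search covered the 250 bases before each RefSeq start (GRCm38.p6) on both strands. It found the letters in 7094 of 32851 promoters (21.6%). Of the 37 genes 23 had an entry, with 26 promoters, and 5 of these (19.2%), belonging to 4 genes, held the letters. They are shown with 10 bases on either side, as read on the strand of the gene, with the letters in capitals (TTCCCA is the same match on the opposite strand).
Itga2b, chr11:102470037-102470062, minus strand: tggttatactTTCCCAggcagaaagg
Lama2, chr10:27616948-27616973, minus strand: ggcccaggccTGGGAAggggtgggga
Lamb1, chr12:31265044-31265069, plus strand: ttgctccactTGGGAAgcgcgcccag
Lamb1, chr12:31265082-31265107, plus strand: cagcccacgcTGGGAActcaagtacc
Lamb3, chr1:193301771-193301796, plus strand: ctactagactTGGGAAggtgccaaat
Lamb3, chr1:193302068-193302093, plus strand: ggaccccacaTTCCCAgggagctctc
None of these 4 genes had an unadjusted p under 0.05 in edgeR. Itga6, Itga7 and Itgb3, with positive log2 fold changes at such a p, were among the genes with no entry. Their promoters were therefore not searched. The match is one of letters only, in windows that are short, and nothing was measured of binding there.

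Genes that work with integrins and laminins were counted from 4 lists. Over the 71 of 72 listed genes that were tested, 6 (8.45%) had an unadjusted p under 0.05, beside 10.6% of all genes. All 6 were lower in mutants, where 4.04% of all genes were lower, 0 were higher, where 6.52% of all genes were higher, and 0 passed the adjusted threshold in edgeR or DESeq2. Of 20 other basement membrane genes, 0 reached an unadjusted p under 0.05 in edgeR, with a median log2 fold change of -0.10. Of 20 other integrin ligands, 3 were lower. They were Thbs1, which encodes thrombospondin 1 (464 ± 72.4 against 371 ± 51.2 CPM, log2 fold change -0.32, SE 0.11), Mfge8, whose protein links dying cells to Itgav integrins (-0.21, SE 0.08), and Emilin1 of elastic fibres (-0.22, SE 0.10). Their edgeR p was 0.0127, 0.0251 and 0.0471 unadjusted, and 0.255, 0.357 and 0.461 adjusted. The median over the 20 ligands was -0.12.

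Inside the cell, 3 of 25 adaptor and signalling genes were lower at an unadjusted p under 0.05. Tln1 encodes talin, which binds integrin β tails and activates them, and its mean was 334 ± 12.3 CPM against 306 ± 14.4 CPM in mutants (SD over 6 libraries, log2 fold change -0.13, SE 0.05, edgeR adjusted p = 0.415). Fermt1, a kindlin of epithelia with the same partners, was at -0.34 (SE 0.13, edgeR adjusted p = 0.304), and Ptk2b, a relative of focal adhesion kinase, was at -0.26 (SE 0.10, edgeR adjusted p = 0.352). Of 6 hemidesmosome and tetraspanin partners, 0 reached an unadjusted p under 0.05 in edgeR, with a median of 0.01. Platelet markers, listed because Itga2b and Itgb3 form the platelet receptor, summed to 13.2 to 18.7 CPM in controls and 13.1 to 19.5 CPM in mutants, with 0 of the 4 tested at an unadjusted p under 0.05 in edgeR.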

How the data were processed

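RNA of cochleae at postnatal day 6 was sequenced as single-end reads of 100 nt. The deposited table holds whole counts per gene made by the authors, 28686 genes by 12 libraries. The submitters' processing notes name Trimmomatic 0.32, STAR 2.4.2a, HTSeq 0.9.1, DESeq2 1.10.1 and the build GRCm38.p4; the annotation and the strand setting of the counting are not given in the sources used here, so that reads of overlapping genes on opposite strands, such as Itga4 and Cerkl, may not be separated. In GENCODE M21 Itgam shares 3450 of its 5024 exon bases with Gm49368 on the same strand, and Itga10 shares 1739 of 5186 with Gm42957. No strand setting separates such reads, and whether the authors' annotation holds these overlapping genes is not known. A second deposited table of the authors' own fold changes and p-values for the genotypes was not used.

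Groups came from the genotype label. Within each genotype, no 2 libraries agreed within counting noise (30 pairs compared). Genes were kept from a mean count of 5 upwards and tested in edgeR 4.0.16 (R 4.3.3; TMM, robust quasi-likelihood F-test), mutants against controls with no covariate, and p-values were adjusted by Benjamini-Hochberg over 18459 genes. Standard errors are the log2 fold change divided by the square root of F. Single genes were also tested by an exact two-sided permutation of log2(CPM + 0.1) over all 924 divisions of the libraries (smallest possible p 0.00216). Alternatives were DESeq2 1.42.0, limma-voom (limma 3.58.1), other scalings and filters, covariates and leaving out libraries. The tests were tried on 1 simulated set of counts, drawn with means and dispersions that edgeR estimated from these libraries. In it 200 genes were changed by 1 on the log2 scale. Of these, edgeR called 94.5%, limma-voom 94.0% and DESeq2 96.5%. False calls made up 2.6%, 2.6% and 15.7% of all calls, in that order. Marker scores are the mean over a list of each gene's log2 CPM.

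Exon lengths and positions came from GENCODE M21 (GRCm38), which matched all 37 subunits. The subunits and gene lists were chosen with earlier results of these data known. Values per library are given for subunits with an unadjusted p under 0.05 in edgeR or an adjusted p under 0.05 in DESeq2 and for the 2 with the highest level per kb in each class; of each list of partner genes, up to 3 with the smallest p under 0.05 are named. Values of 1 subunit that entered the counts are not reported here.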

Additional observations from a re-analysis of the deposited data

Results flagged for a closer look

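In each genotype the highest and the lowest library of every subunit were compared with the nearest other library by Dixon's test at 95%, which flags about 1 in 20 groups by chance. Of 74 groups, 7 passed, where 3.7 would be expected if all varied by chance alone. The groups share libraries, so they are not independent. Mutant 2 was far above the other mutants in Itga6 (275.7 CPM, the next mutant at 199.3) and in Lama4 (264.5 CPM, the next at 211.4). Mutant 1 was far below the other mutants in the collagen receptor chain Itga1 (25.45 CPM, the next at 47.63). Control 2 was far above the other controls in Itgax (2.232 CPM, the next at 0.6099). Mutant 6 was far above the other mutants in Itgax (0.5044 CPM, the next at 0.1641) and in its partner Itgb2 (4.57 CPM, the next at 3.064). Mutant 4 was far above the other mutants in Lamc3 (49.26 CPM, the next at 33.28).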

How the results depend on the processing

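The log2 fold changes of the 10 integrins with an unadjusted p under 0.05 kept their direction in 217 of 219 alternative fits and turned for Itga6 (-0.0752) and Itgb3 (-0.18) with neuron and Schwann cell scores as covariates, where Jag1 was at -1.43 (adjusted p = 0.0735). The count of subunits past an adjusted p of 0.05, 0 in edgeR, was 2 in DESeq2 and 0 to 1 when a library was left out (1 without mutant 5). The count at an unadjusted p under 0.05, 10, was 3 with the marker scores (all lower in mutants), 5 without mutants 1, 2 and 4 (chosen after seeing the data) and 6 to 11 when a library was left out (6 without control 2). Over all genes the 35 calls became 608 in DESeq2, 57 with no filter, 23 with Xist as a covariate (sex is not in the labels), 19 in limma-voom and 1 with the marker scores, and 14 to 356 when a library was left out, with 14 to 22 without control 2, 3, 4, 5 or 6, 15 to 17 without mutant 6 or 2, 54 without mutant 1, 66 without mutant 4 and 356 without mutant 5. The split of these calls was 20 higher and 15 lower in edgeR, 468 and 140 in DESeq2, 8 and 15 with Xist and 6 and 13 in limma-voom. The 6 partner genes at an unadjusted p under 0.05 became 11 with Xist, 0 with the marker scores and 4 to 12 when a library was left out, 11 without control 1 and 12 without mutant 1. Between the chains that were highest by all exons, the ratio of levels per kb with the longest coding transcript as the length, added after seeing the data, was 0.567 for Lama5 over Lama4 (1.13 with all exons), 1.75 for Itga8 over Itga10 (by this length Itga6 is the next α chain), 1.996 for Itgb1 over Itgb5 and 2.21 for Lamb1 over Lamb2. Libraries share only a replicate number: same-numbered libraries had correlations of -0.187 to 0.272 and 2 of 6 controls correlated best with their own number. With the replicate block 131 genes were called (115 higher, 16 lower), 0 subunits were called, 11 had an unadjusted p under 0.05, and so did 2 partner genes. Depth limits Itgad, Itgae and Itgax, which had at most 75 counts in a library. The cause of these shifts was not tested.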

Other observations

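Spread between libraries was uneven among the subunits. Of the 36 tested, 22 (61.1%) had a larger coefficient of variation in mutants than in controls, with a median ratio of 1.06, beside 59.3% and 1.11 over all 18459 genes, so that the subunits as a set were like the rest of the genes. Within the set the gap was wide for Itgb5 (CV of 1.08% in controls and 11.6% in mutants), Itga7 (10.5% and 34.5%) and Itga5 (2.58% and 8.50%), genes picked here after their values were seen. No test was run on these spreads.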
